A study of Mus musculus with 10 samples.

Results

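The 36 genes described here encode enzymes that make cholesterol and fatty acids, together with the regulators that set their transcription and a few proteins that handle the sterol product. They were chosen by name from a list of the pathway, with earlier results of these data known. All 36 were found among the 28247 genes of the deposited table. Of them 18 are enzymes of the sterol pathway, 11 act on fatty acids, and 7 belong to the control by SREBP (sterol regulatory element binding protein) or to sterol transport and storage. Poly(A) RNA came from primary microglia of wild-type mice, the phagocytes that live in brain tissue. All cells had been pre-treated with oligomers of amyloid-β and were then transfected with a negative control mimic (5 libraries) or with a mimic of the microRNA miR-378a-3p (5 libraries), so every difference is relative to amyloid-treated cells that carried the control mimic. Age, sex, dose and duration are not stated in the labels. Nor do the labels say whether the 5 libraries of a group came from different cultures or animals. The p-values therefore measure the spread between these libraries, which may be technical.

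Cells build cholesterol from acetyl units by way of mevalonate, farnesyl diphosphate, squalene and lanosterol. The SREBP transcription factors are made as membrane proteins of the endoplasmic reticulum, where the escort protein Scap carries them to the Golgi apparatus for cleavage when sterol is scarce, and where the Insig proteins hold Scap back when sterol is plentiful. The protein of Srebf2 acts mainly on sterol genes, and that of Srebf1 mainly on fatty acid genes. Microglia also take up lipid from debris and myelin, so their own synthesis is only one source of sterol.

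The libraries held 48707985 to 65069571 deposited counts, with about 4 counts to a read pair. Of 14 microglial marker genes, 14 were detected and 14 were lower with the miR-378a-3p mimic. Their summed FPKM (fragments scaled by gene length and by library size, the authors' unit) was 665 to 709 in control libraries and 418 to 467 in mimic libraries. Cx3cr1, a chemokine receptor of microglia, averaged 28.6 FPKM with the control mimic and 0.475 with miR-378a-3p. In bulk RNA, fewer cells of a type and less RNA per cell cannot be told apart, and the part of this shift in the results on lipid synthesis was not tested. Mimic replicate 1 stood apart: 7 epithelial markers summed to 65.8 FPKM there and to between 0.192 and 0.396 in the other 9 libraries, and the keratin genes Krt8 and Krt18 reached 27.4 and 28.4 FPKM. Values of Scd1 and Hsd17b7, the counts of calls and the fatty acid median are given with and without it. Summed FPKM of the other marker lists did not exceed 1.30 in any library for neurons and for fibroblast and mural cells. Astrocyte, oligodendrocyte and endothelial sums were carried by Aldoc, Cnp and Flt1 (99.6, 10.3 and 10.3 FPKM in control libraries), while Gfap, Olig2 and Tek were at or near 0.

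SREBP proteins bind DNA near the start of their target genes together with partner factors, and the promoter letters of the members that changed most are shown first. Of 10 members that changed at least 1.5-fold, 8 had an entry in the RefSeq promoter table (GRCm38.p6), and the 150 bases before the start are printed for each, at the most upstream start where a gene had several. They were picked after the values were seen. On the plus strand lie Hmgcs1 (chr13:119690201-119690350), Mvk (chr5:114444119-114444268), Pmvk (chr3:89454391-89454540), Nsdhl (chrX:72918371-72918520), Insig1 (chr5:28071262-28071411) and Scap (chr9:110333138-110333287), and on the minus strand Mvd (chr8:122443423-122443572) and Tm7sf2 (chr19:6067851-6068000). The first 6 lines belong to genes that were lower with the mimic and the last 2 to genes that were higher. Capitals mark every match, on either strand, to the sterol regulatory element TCACNCCAC (N is any base), to the E-box CACGTG, to the NF-Y box CCAAT and to the GC box GGGCGG.
Hmgcs1: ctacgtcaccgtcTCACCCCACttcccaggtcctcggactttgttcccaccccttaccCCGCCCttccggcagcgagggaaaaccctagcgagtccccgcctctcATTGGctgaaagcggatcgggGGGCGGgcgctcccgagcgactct
Mvk: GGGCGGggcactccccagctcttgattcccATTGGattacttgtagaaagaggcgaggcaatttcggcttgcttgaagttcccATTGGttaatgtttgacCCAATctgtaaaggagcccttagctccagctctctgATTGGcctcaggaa
Pmvk: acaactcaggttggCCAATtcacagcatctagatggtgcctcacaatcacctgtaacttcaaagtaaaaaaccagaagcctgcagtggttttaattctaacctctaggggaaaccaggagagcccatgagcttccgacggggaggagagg
Mvd: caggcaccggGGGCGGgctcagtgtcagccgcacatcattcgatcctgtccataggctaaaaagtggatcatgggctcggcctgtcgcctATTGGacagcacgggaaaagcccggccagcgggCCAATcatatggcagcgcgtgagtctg
Nsdhl: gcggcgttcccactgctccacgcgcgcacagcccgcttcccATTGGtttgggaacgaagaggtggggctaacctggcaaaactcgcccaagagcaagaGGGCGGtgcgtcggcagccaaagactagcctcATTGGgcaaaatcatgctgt
Insig1: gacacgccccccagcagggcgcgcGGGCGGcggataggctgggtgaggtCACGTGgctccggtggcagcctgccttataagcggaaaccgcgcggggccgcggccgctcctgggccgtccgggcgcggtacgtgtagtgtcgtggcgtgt
Tm7sf2: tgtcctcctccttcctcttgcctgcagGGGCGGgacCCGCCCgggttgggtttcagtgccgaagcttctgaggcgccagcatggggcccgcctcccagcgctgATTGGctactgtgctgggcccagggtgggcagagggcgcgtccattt
Scap: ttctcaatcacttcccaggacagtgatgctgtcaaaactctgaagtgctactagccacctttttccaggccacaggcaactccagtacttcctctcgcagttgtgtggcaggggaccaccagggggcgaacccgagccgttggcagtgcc

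The sterol regulatory element was matched in Hmgcs1 alone, 137 bases before the start. NF-Y boxes were present in 6 of the 8 stretches, with 4 in Mvk, and GC boxes in 6 of the 8. The printed Scap stretch held none of the motifs, although its longer windows held an E-box and GC boxes, and the E-box occurred once, in Insig1. Over the whole windows, from 250 bases before to 50 after the start, 29 members had at least 1 entry, and a gene with several windows was counted if any held the motif. The sterol regulatory element was found in 1 of these 29, against 1.35% of 10518 tested genes with an entry. An NF-Y box was found in 24 of 29 members (82.8%), against 43.2% of tested genes and 41.1% of all 27025 genes with an entry. It was present in 14 of 15 sterol enzymes and in 5 of 8 fatty acid enzymes. A GC box was found in 24 of 29 (82.8%), against 65.4% of tested genes, and an E-box in 6 of 29 (20.7%), against 11.7%. These matches are letters in a window and say nothing of binding, and Fdps, Fdft1, Sqle, Stard4, Scd1, Scd2 and Fads1 were not searched. Each motif was searched as 1 fixed pattern. A promoter without a match to TCACNCCAC may still hold a variant of the element.

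With the miR-378a-3p mimic, 20 of the 35 tested members fell and 8 rose, and 7 did not pass the test. The test was edgeR's quasi-likelihood test across 15916 genes, and calling a gene required an adjusted p (Benjamini-Hochberg) below 0.05. The transcriptome as a whole moved widely: 63.2% of all tested genes were called (72.2% of those with a mean FPKM of at least 1), 31.5% as lower and 31.7% as higher, and the median log2 fold change over all tested genes was -0.0021. Against this background, 80.0% of the members were called, 57.1% as lower and 22.9% as higher. The FPKM values of the groups did not overlap for 26 of the 35 tested members, against 52.2% of all tested genes. Because the members were chosen with earlier results known, these shares are descriptions and do not test for an excess. The 7 deepest falls were in Hmgcs1, Mvk, Pmvk, Mvd, Fdps, Fdft1 and Nsdhl, all sterol enzymes, while most of the fatty acid enzymes that were called had risen. Without mimic replicate 1 the test again called 20 members as lower and 8 as higher.

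**Figure D1:**
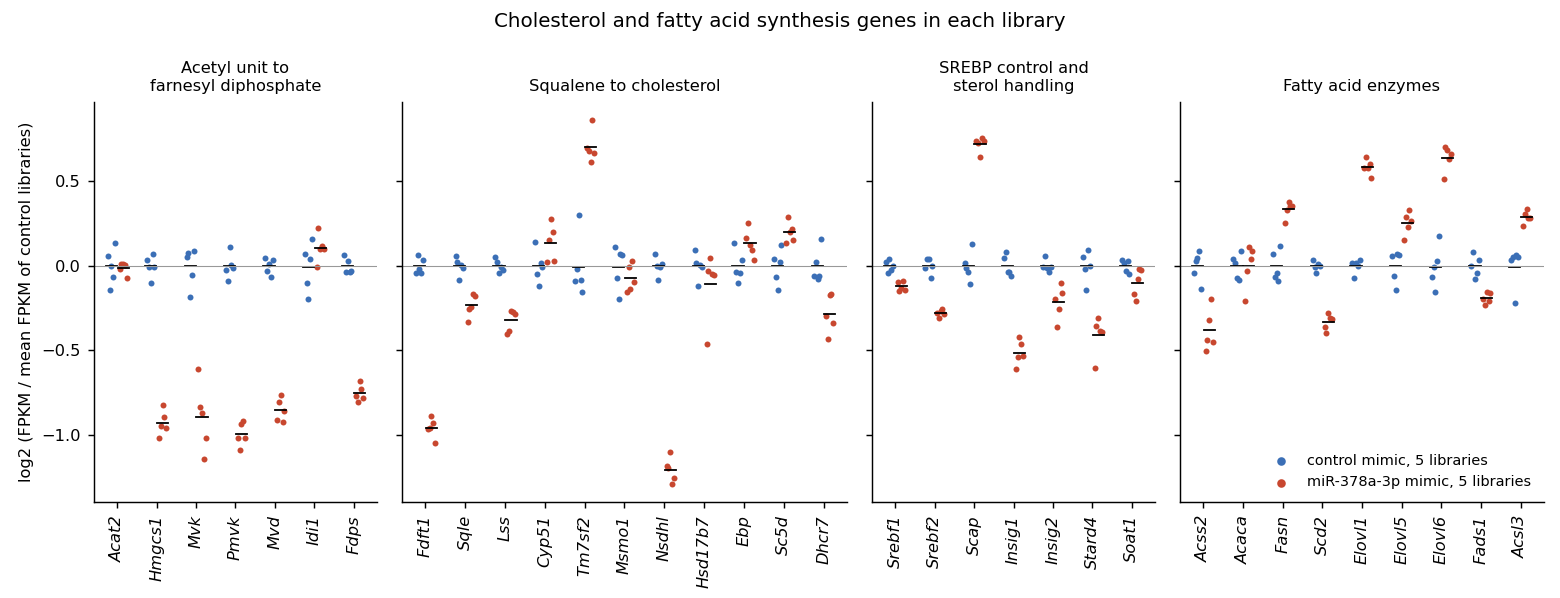
Each dot is a library, placed at the log2 ratio of its FPKM to the mean FPKM of the 5 control libraries, with the gene on the horizontal axis and a black line at the mean of each group (blue, control mimic; red, miR-378a-3p mimic). Hmgcs1, Mvk, Pmvk, Mvd, Fdps, Fdft1 and Nsdhl lie far below their control dots, Scap, Elovl1, Elovl6 and Tm7sf2 lie above them, and Scd1 and Fads2, which were hardly detected, are left out.

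The early enzymes, which lead from acetyl units to farnesyl diphosphate, fell in 5 of 7 cases, with a median log2 fold change of -0.94 and 0 that rose. Of all tested genes, 31.5% were called lower and 31.7% higher. Hmgcs1 (ENSMUSG00000093930, chromosome 13, 119690379 to 119708260 on GRCm38, plus strand), which joins acetoacetyl-CoA with a further acetyl unit and whose promoter letters head the list above, was measured at 28.5, 27.7, 25.9, 29.2 and 27.7 FPKM in control libraries. In mimic libraries 1 to 5 it was at 13.7, 14.4, 15.7, 15.0 and 14.3 FPKM. Every mimic library lay below every control library, and the log2 fold change was -1.01 (± 0.0405 SE, adjusted p = 1.2e-11 by edgeR). By that estimate Hmgcs1 fell by 50.5%.

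The kinases and the decarboxylase that turn mevalonate into isopentenyl diphosphate followed the same pattern. Mvk, mevalonate kinase (chromosome 5, 114444269 to 114460591), was at 6.91, 7.04, 5.88, 6.42 and 7.08 FPKM in control libraries and at 4.36, 3.74, 3.64, 3.03 and 3.30 in mimic libraries. Pmvk, phosphomevalonate kinase (chromosome 3, 89454541 to 89469013), was at 32.1, 30.7, 35.3, 32.7 and 32.4 FPKM in control libraries and at 16.1, 15.4, 17.1, 17.3 and 16.1 in mimic libraries. Neither gene showed any overlap between the groups, and their log2 fold changes were -0.97 and -1.08. Mvd, the decarboxylase (chromosome 8, 122433601 to 122443422, minus strand), was at 35.8, 33.9, 34.8, 33.1 and 35.5 FPKM in control libraries and at 18.4, 19.8, 20.4, 18.2 and 19.1 in mimic libraries. The groups of Mvd were equally distinct, with a log2 fold change of -0.94 (± 0.0426 SE, adjusted p = 4.8e-11 by edgeR).

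Fdps, which condenses the isoprene units into farnesyl diphosphate (chromosome 3, 89093588 to 89101959, minus strand), was the most abundant sterol enzyme. Its control libraries held 91.7, 85.4, 89.4, 85.2 and 85.8 FPKM and its mimic libraries 51.3, 50.2, 54.7, 52.8 and 51.0. The highest mimic library stayed below the lowest control library, and the log2 fold change was -0.84 (± 0.0334 SE, adjusted p = 1.15e-11 by edgeR). The other early enzymes did not pass. Acat2, the cytosolic thiolase of the opening step, averaged 30.7 ± 2.32 FPKM in control and 30.5 ± 0.706 in mimic libraries (SD, n = 5 each), with a log2 fold change of -0.10 and an edgeR adjusted p of 0.0619. Leaving out control replicate 2 gave an edgeR adjusted p of 0.00429, and leaving out control replicate 4 gave 0.0476. With all libraries it was 0.0289 among genes with a mean FPKM of 1 or more and 0.0474 with counts divided by 4, and over all alternatives it ran from 0.00429 to 0.887. Idi1, the isomerase between Mvd and Fdps, averaged 22.2 ± 2.14 and 24.0 ± 1.35 FPKM (edgeR adjusted p = 0.779). Acat3, a close relative of Acat2 whose reads could be shared with it, was at 2.03 and 1.74 FPKM.

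The pathway from squalene to cholesterol was less uniform: of 11 enzymes 6 fell, 2 rose and 3 did not pass, with a median log2 fold change of -0.19. Nsdhl (ENSMUSG00000031349, chromosome X, 72918557 to 72958514), a dehydrogenase that works with Msmo1 and Hsd17b7 to strip methyl groups from the sterol ring, fell most of all members. It was at 17.5, 16.7, 15.8, 16.6 and 16.8 FPKM in control libraries and at 7.34, 7.27, 7.77, 6.82 and 7.00 in mimic libraries. The groups lay far apart, with a log2 fold change of -1.29 (± 0.0485 SE, adjusted p = 6.24e-12 by edgeR). By that estimate Nsdhl fell by 59.2%. Its partners moved little: Msmo1 averaged 22.3 ± 1.9 and 21.2 ± 1.19 FPKM, and Hsd17b7 averaged 2.04 ± 0.107 and 1.9 ± 0.243 FPKM (SD, n = 5 each). Msmo1 passed the edgeR test (log2 fold change -0.16, adjusted p = 0.0136) although its groups overlapped. It did not pass with library totals in place of TMM (adjusted p = 0.175) or in the limma fits on FPKM, where the adjusted p was 0.0614 to 0.336. Hsd17b7 did not pass (log2 fold change -0.19, edgeR adjusted p = 0.0857). Without mimic replicate 1, where it was lowest, its log2 fold change was -0.11 (adjusted p = 0.213).

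Fdft1, squalene synthase, which commits farnesyl diphosphate to sterols (chromosome 14, 63145150 to 63179578, minus strand), was at 21.2, 22.7, 21.5, 21.1 and 22.3 FPKM in control libraries. In mimic libraries it was at 11.2, 11.2, 11.8, 11.4 and 10.5 FPKM. The groups did not overlap, and the log2 fold change was -1.05 (± 0.0377 SE, adjusted p = 4.19e-12 by edgeR). Its exons share 774 of 4227 annotated bases with the cathepsin gene Ctsb on the opposite strand, which averaged 579 FPKM in control and 361 in mimic libraries and fell by 0.77 on the log2 scale. The labels do not state if strand entered the counting, and the part of Ctsb reads in the Fdft1 counts was not tested.

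Smaller falls were seen in the enzymes that close and finish the ring. Lss, which folds the squalene epoxide into lanosterol, averaged 11.9 ± 0.307 and 9.53 ± 0.430 FPKM, a log2 fold change of -0.41 (± 0.0340 SE, adjusted p = 4.6e-08 by edgeR). Sqle, squalene epoxidase, and Dhcr7, a reductase of the last step, fell by 0.32 and 0.37 on the log2 scale. None of these 3 genes overlapped between groups. Cyp51, the lanosterol demethylase, and Ebp, a sterol isomerase, did not pass, with log2 fold changes of 0.05 and 0.05 and edgeR adjusted p of 0.462 and 0.586.

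In the opposite direction went Tm7sf2, a sterol reductase of low expression (chromosome 19, 6062821 to 6067850, minus strand). It was at 0.982, 1.03, 1.29, 0.987 and 0.938 FPKM in control libraries and at 1.69, 1.67, 1.60, 1.9 and 1.66 in mimic libraries. All mimic libraries were higher than all control libraries, with a log2 fold change of 0.60 (edgeR adjusted p = 0.000109). By the coordinates of the table it shares 9 bases, and by GENCODE M21 532 exonic bases, with Vps51 on the same strand. Vps51 was more abundant than Tm7sf2, at a mean of 13.7 FPKM in control and 9.21 in mimic libraries. It fell by 0.66 on the log2 scale, and the part of its reads in the Tm7sf2 counts was not tested. Sc5d, a sterol desaturase, averaged 13.5 ± 0.966 and 15.6 ± 0.655 FPKM with no overlap and was called as higher by a narrow margin (log2 fold change 0.11, edgeR adjusted p = 0.0472). It lost the call in 5 of the 10 other settings and without any 1 of control replicates 1 to 4 or mimic replicates 2 to 4, where the adjusted p ranged up to 0.212.

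**Figure D2:**
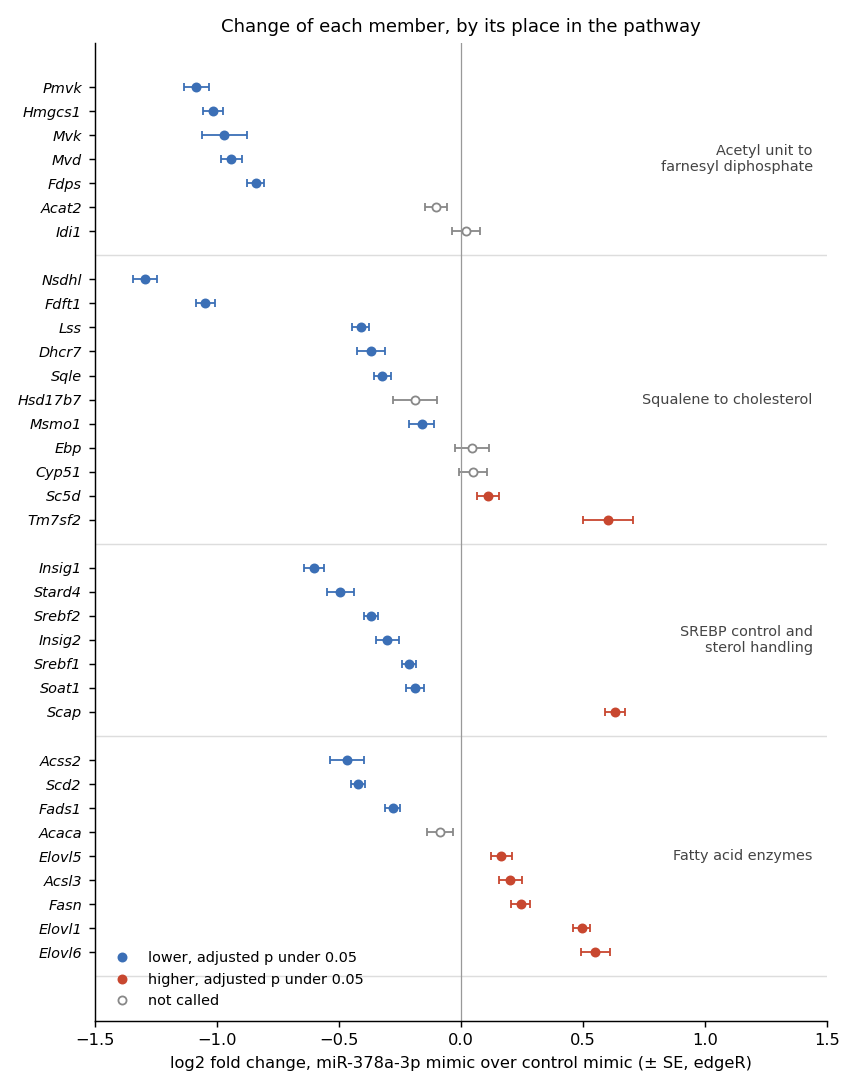
Log2 fold changes of 34 members from edgeR (mimic over control, error bars show the SE) are drawn on the horizontal axis, with the genes sorted within the 4 lists; filled blue dots are called lower, filled red dots called higher, and open grey dots not called. The early sterol enzymes cluster near -1 apart from Acat2 and Idi1, whereas the fatty acid enzymes run from -0.47 to 0.55.

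Summed over the 18 sterol enzymes, the level was 402, 379, 378, 385 and 396 FPKM in control libraries and 271, 282, 289, 286 and 275 in mimic libraries. The mean of the mimic libraries was 72.3% of that of the controls, at 66.2% for the 7 early enzymes and 82.5% for the 11 later ones. The median log2 fold change of the sterol enzymes was -0.35, and it lay between -0.38 and -0.24 over all 20 alternatives. These sums and medians are descriptions of a list that was chosen with earlier results known, and carry no test.

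All 7 genes of SREBP control and sterol handling were called, 6 as lower and 1 as higher, with a median log2 fold change of -0.30. Over all tested genes 63.2% were called, 31.5% as lower and 31.7% as higher. Srebf2 (ENSMUSG00000022463, chromosome 15, 82147181 to 82205379), the factor that drives sterol genes and is itself one of its targets, was at 42.4, 44.0, 44.1, 40.7 and 42.8 FPKM in control libraries and at 35.2, 34.6, 35.6, 35.9 and 35.1 in mimic libraries. The groups were separate, and the log2 fold change was -0.37 (± 0.0293 SE, adjusted p = 2.73e-08 by edgeR). Srebf1 (chromosome 11, 60199089 to 60222581, minus strand), whose protein favours fatty acid genes, was at 35.9, 34.3, 36.4, 34.7 and 35.2 FPKM in control libraries and at 33.0, 31.9, 32.3, 33.2 and 31.9 in mimic libraries. It fell by 0.21 on the log2 scale (± 0.0282 SE, adjusted p = 8.74e-06 by edgeR), a small change that was nevertheless free of overlap. The table gives 1 value for Srebf1, so its alternative starts, which make different proteins, could not be separated.

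Scap and Insig1, the escort and its anchor, moved apart. Scap (ENSMUSG00000032485, chromosome 9, 110333288 to 110378776) was at 6.38, 6.24, 6.14, 5.84 and 6.88 FPKM in control libraries and at 10.5, 10.4, 9.84, 10.6 and 10.5 in mimic libraries. Its log2 fold change was 0.63 (± 0.0403 SE, adjusted p = 2.42e-09 by edgeR), the highest of the tested members. Insig1 (ENSMUSG00000045294, chromosome 5, 28071363 to 28078662), itself a well-known SREBP target and the member with an E-box in its printed promoter, was at 38.7, 39.6, 36.5, 36.5 and 35.9 FPKM in control libraries and at 24.6, 25.7, 28.0, 27.1 and 25.8 in mimic libraries. It fell by 0.60 on the log2 scale (± 0.0408 SE, adjusted p = 4.75e-09 by edgeR), again with no overlap. The ratio of Insig1 to Scap, in FPKM, was 5.96 ± 0.446 in control libraries and 2.54 ± 0.190 in mimic libraries (SD, n = 5 each). This ratio and those given further on were formed after the values were seen and are descriptions, with no test.

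The remaining control and handling genes fell as well. Insig2, the second anchor, averaged 12.6 ± 0.307 and 10.9 ± 0.747 FPKM. Stard4, a carrier of sterol between membranes, averaged 9.92 ± 0.603 and 7.49 ± 0.570 FPKM. Soat1, which esterifies cholesterol for storage, averaged 37.2 ± 0.927 and 34.8 ± 2.01 FPKM (SD, n = 5 each). Their log2 fold changes were -0.30, -0.49 and -0.19, and the groups overlapped only for Soat1 among these 3 genes.

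The fatty acid enzymes went both ways: of the 10 tested, 5 rose and 3 fell, and the median log2 fold change was 0.18. Without mimic replicate 1 that median was 0.0779, with the scarce gene Scd1 at -0.67, the lowest of the 10, in place of 0.30. Over the 9 tested genes other than Scd1 it was 0.165 with all libraries and 0.191 without that replicate. Those that lengthen the chain rose together. Elovl6 (ENSMUSG00000041220, chromosome 3, 129532355 to 129634971), which extends palmitate, was at 3.85, 4.03, 3.62, 4.12 and 4.57 FPKM in control libraries and at 5.76, 6.56, 6.49, 6.25 and 6.37 in mimic libraries. The lowest mimic library was above the highest control library, and the log2 fold change was 0.55 (± 0.06 SE, adjusted p = 9.81e-07 by edgeR).

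Elovl1, which makes very long saturated chains, averaged 25.0 ± 0.706 FPKM in control and 37.5 ± 1.16 in mimic libraries, a log2 fold change of 0.49 (± 0.0338 SE, adjusted p = 5.14e-09 by edgeR). Elovl5, which acts on polyunsaturated chains, averaged 29.4 ± 1.89 and 35.1 ± 1.60 FPKM. Both were higher in every mimic library than in any control library. Fasn, the multi-domain synthase that builds palmitate, was at 35.8, 32.6, 33.1, 32.0 and 37.0 FPKM with the control mimic and at 40.7, 42.9, 44.4, 43.5 and 43.6 with miR-378a-3p. Acsl3, an acyl-CoA synthetase found on lipid droplets, averaged 13.0 ± 1.03 and 15.9 ± 0.416 FPKM. The log2 fold changes of Elovl5, Fasn and Acsl3 were 0.16, 0.24 and 0.20, all called, and the groups of these 4 genes did not overlap.

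Acss2, Acaca and the desaturases Scd2 and Fads1 were not among the genes that rose. Acss2, which makes acetyl-CoA from acetate, averaged 2.23 ± 0.135 and 1.72 ± 0.149 FPKM, a log2 fold change of -0.47. Acaca, the carboxylase that supplies malonyl-CoA to Fasn, averaged 5.66 ± 0.290 and 5.68 ± 0.482 FPKM and did not pass (edgeR adjusted p = 0.177). Scd2, the stearoyl-CoA desaturase, had the highest level of all members and averaged 310.2 ± 6.0 FPKM in control and 246 ± 8.15 in mimic libraries (SD, n = 5 each). In single libraries Scd2 was at 318, 309, 301, 312 and 310.3 FPKM with the control mimic and at 241, 235, 256, 251 and 249.1 with miR-378a-3p, without overlap. It fell by 0.42 on the log2 scale (± 0.0283 SE, adjusted p = 4.07e-09 by edgeR). Its share of the summed FPKM of the fatty acid enzymes was 67.7% ± 0.588 in control libraries and 58.4% ± 0.745 in mimic libraries. Fads1, a desaturase of polyunsaturated chains, averaged 34.3 ± 1.49 and 30.1 ± 0.71 FPKM and fell by 0.28 on the log2 scale.

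Because Scd2 weighs so much, the sum of the fatty acid branch was lower with Scd2 included and higher without it. The genes other than Scd2 were themselves mixed, as Fads1 and Acss2 also fell. The summed FPKM of the 11 genes averaged 458 ± 10.6 in control and 422 ± 10.01 in mimic libraries, whereas without Scd2 it averaged 148 ± 5.49 and 176 ± 3.30 (SD, n = 5 each). The ratio of Fasn to Fdps, in FPKM, was 0.390 ± 0.0244 in control and 0.827 ± 0.0271 in mimic libraries, and that of Elovl6 to Scd2 was 0.0130 ± 0.00109 and 0.0255 ± 0.00147. As Fasn and Elovl6 were higher and Fdps and Scd2 lower in every mimic library, neither ratio could overlap between the groups. Srebf1 stood at 0.825 ± 0.0287 of Srebf2 in control and at 0.920 ± 0.0120 in mimic libraries.

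**Figure D3:**
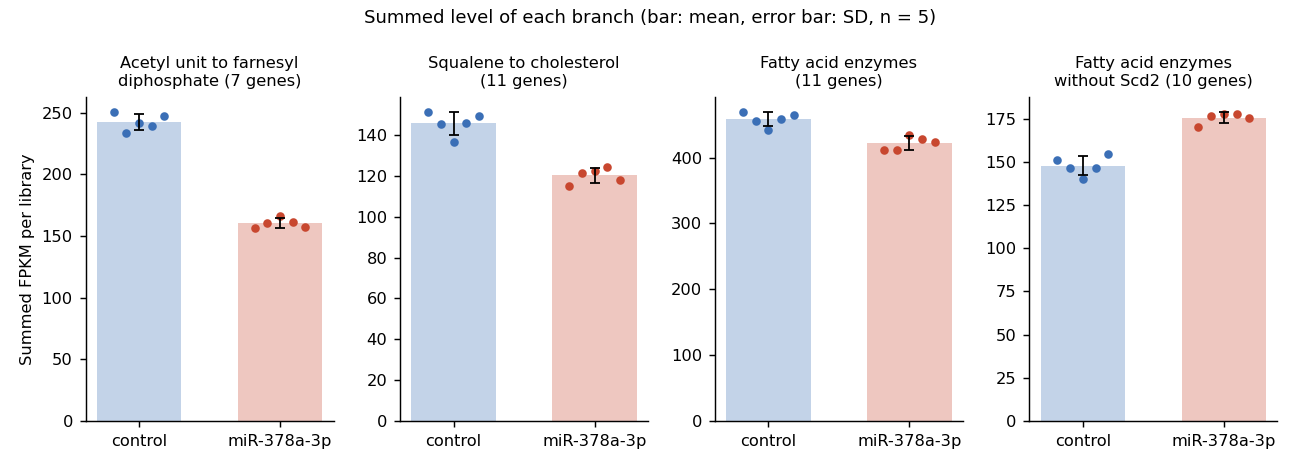
Summed FPKM per library (vertical axis) for 4 groups of enzymes, with a dot for each of the 5 libraries of a group, a bar at the mean and an error bar of 1 SD. The sterol sums are lower in all mimic libraries, and the fatty acid sum is lower with Scd2 included (458 against 422 FPKM) and higher without it (148 against 176 FPKM).

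The other members of the desaturase pairs were hardly present. Fads2, the partner of Fads1, was listed at 0, 0, 0, 0.0444 and 0 FPKM in control libraries and at 1.69, 0.0331, 0, 0 and 0.0497 in mimic libraries, and it had too few counts to pass the filter of the reported test. With no filter on low counts it was called as higher (log2 fold change 5.27, edgeR adjusted p = 0.044), whereas limma on FPKM did not call it (adjusted p 0.275 to 0.308). Mimic replicate 1 held 359 counts of Fads2, against at most 11 in any other library. Scd1, the paralog of Scd2, was at 0.0872, 0.110, 0.0468, 0.0595 and 0.0816 FPKM in control libraries and at 0.304, 0.0377, 0.0753, 0.0492 and 0.0399 in mimic libraries. It was again highest in mimic replicate 1, the library with epithelial markers. The log2 fold change of Scd1 was 0.30 with all libraries (edgeR adjusted p = 0.655) and -0.67 without that replicate (adjusted p = 0.158). The part of the epithelial signal in either gene was not tested. Scd1 and Scd2 are alike in sequence, so reads could be shared between them.

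**Figure D4:**
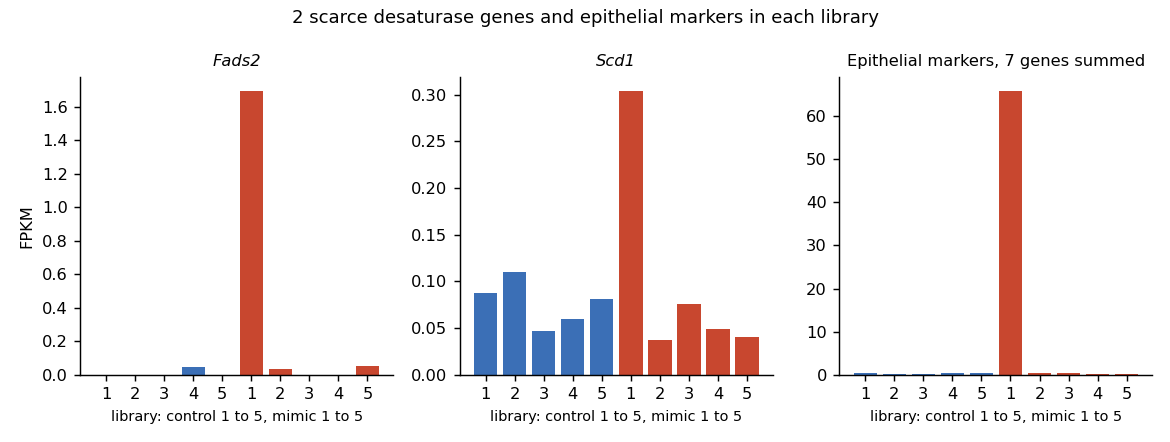
FPKM of Fads2, of Scd1 and of 7 epithelial markers summed (vertical axes, each on its own scale from 0) in each of the 10 libraries, control in blue and miR-378a-3p mimic in red. Mimic replicate 1 is the highest bar in all 3 panels, at 1.69, 0.304 and 65.8 FPKM.

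Other genes of the pathway, counted from lists that do not hold the members, did not all share the fall of the sterol enzymes. Among other sterol synthesis, uptake and sensing genes, 5 of 13 tested were lower and 3 higher, with a median log2 fold change of -0.03. Among genes that process or degrade SREBP, Scap or the sterol enzymes, 12 of 18 were higher and 3 lower, with a median of 0.33, so that Scap rose beside other genes of that machinery. Among genes that use the same isoprene units for protein prenylation, dolichol and ubiquinone, 9 of 17 were higher and 2 lower, with a median of 0.11. Other fatty acid synthesis genes split evenly, 8 higher and 8 lower of 23, with a median of -0.02. These counts are to be read against the 31.5% and 31.7% of all genes called lower and higher.

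Annotated genes overlapped 19 of the members, and in 7 the overlapping gene reached more than 5% of the FPKM of the member. Besides Fdft1 and Tm7sf2 these were Acss2, Elovl1, Cyp51, Srebf1 and Acsl3. For Fdft1, Tm7sf2, Acss2 and Elovl1 the overlapping gene had a higher mean FPKM than the member in both groups. Gss, on the strand opposite to Acss2 with 395 shared exonic bases, rose by 0.72 on the log2 scale while Acss2 fell. Cdc20, opposite to Elovl1, shares 53 exonic bases with it and changed by 0.04. Values of these members are uncertain to that extent.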

How the data were processed

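RNA of 10 libraries was analysed, 5 per group, grouped by the treatment label and numbered by the title. The libraries were made from fragmented poly(A) RNA with dUTP, which keeps the strand, per the labels' protocols. The authors deposited 1 table that gives each gene, for every library, an estimated count (an expected count, written as a whole number) and a value in FPKM. Per the submitters' processing notes, the tools were HISAT2 2.2.1, StringTie 2.1.6, cutadapt 1.9, edgeR and DESeq2, and the build GRCm39; no source used here gives their roles, the annotation or the use of strand in counting. The gene coordinates of the table equal those of GENCODE M21, a GRCm38 annotation, for 90.8% of 28163 shared identifiers and for 30 of the 36 members, so coordinates are given as GRCm38. Genes pile up at 4, 8 and 12 counts (933.5 per library had 4 counts, 485.6 had 3 and 305.8 had 5), so a read pair is worth about 4 counts. All 20 value columns matched a library.

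Deposited counts were filtered with filterByExpr, scaled by TMM and tested across all genes with edgeR 4.0.16 (R 4.3.3; glmQLFit, glmQLFTest, no covariate). The SE is the size of the log2 fold change divided by the square root of F. TMM lowers the mimic libraries relative to their FPKM, so edgeR changes lie slightly below ratios of FPKM. The members and lists were chosen with earlier results of these data known. By a rule, values of all libraries are printed for members with adjusted p under 0.05, a log2 change of at least 0.5 and a mean FPKM of at least 1, and for Srebf1, Srebf2, Scap and Insig1; SE and adjusted p are printed for the 3 members of each list with the smallest p and for those 4 genes, and an adjusted p alone for some others. Library values of Fasn, Scd2, Scd1 and Fads2 were added outside that rule, after they were seen. Alternatives were DESeq2 1.42.0, limma 3.58.1 on FPKM, other scalings and filters, counts divided by 4, the replicate number as a block, and the omission of each library in turn. Scripts were tested on simulated counts. Promoter sequences are RefSeq's (GRCm38.p6).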

Additional observations from a re-analysis of the deposited data

Results flagged for a closer look

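Of 72 groups of 5 values, 2 for each of the 36 members, 7 held a library far from the other 4 in FPKM, measured by its gap to the nearest value as a share of the range; chance alone gives about 1 in 20. Mimic replicate 1 accounted for 3 of them: Fads2 at 1.69 FPKM, with at most 0.0497 in the other mimic libraries, Scd1 at 0.304, with at most 0.0753, and Hsd17b7 at 1.48, with at least 1.96. In the same library 6 of 7 epithelial markers were at their highest. Control replicate 3 held the highest Tm7sf2 of its group (1.29 FPKM) and the lowest Acsl3 (11.2 FPKM). Mimic replicate 3 held the lowest Scap of its group (9.84 FPKM), still above every control library. Control replicate 4 was the 1 control library with a value above 0 for Fads2 (0.0444 FPKM, from 8 counts).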

How the results depend on the processing

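Over the 20 alternatives 19 to 21 members were called lower and 7 or 8 higher. With no filter on low counts the 8 called higher were 7 of those reported and Fads2, in place of Sc5d; mimic replicate 1 held 359 counts of Fads2 and no other library over 11. Of 35 tested members, 29 kept their direction and their side of the threshold under every alternative; the others were Acat2, Idi1, Msmo1, Sc5d, Acaca and Scd1. Genes called over all genes ranged from 4065 to 5099 lower and from 4228 to 6065 higher. The median of the sterol enzymes was -0.27 with library totals, -0.24 with limma on log2(FPKM + 1) and -0.25 with a pseudocount of 0.1. That of the fatty acid enzymes was 0.26, 0.25 and 0.25 under the same settings, 0.149 when genes under a mean FPKM of 1 were left out and 0.0384 with a replicate block. When each library was left out in turn it ran from 0.0779 to 0.20. Without Scd1 that median was 0.165 with the replicate block. Signs turned for Acaca, at 0.0016 and 0.0015 in the limma fits with pseudocounts of 1 and 0.1, for Scd1, at -0.11 with the replicate block and from -0.67 to 0.50 with a library left out, and for Idi1, from -0.0378 to 0.0493 with a library left out. None of these 3 genes was called in any fit, and the cause was not tested. Deviations of same-numbered control and mimic libraries correlated at -0.0193 to 0.0954, and those with different numbers at -0.113 to 0.138. Of 10 libraries, 3 correlated best with their own number. Correlations this weak cannot tell if the replicate numbers pair the libraries. The replicate block called 20 members lower and 7 higher, losing Sc5d. Scd1 and Fads2 averaged under 0.2 FPKM over all libraries, and depth limits what can be said of them.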
